A study of Homo sapiens with 3 samples.

Results

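The mitochondrial ribosomal protein genes, whose symbols are MRPL or MRPS followed by a number and, in some, the letter A, B or C, were described in 3 lines of human embryonic stem (ES) cells, all undifferentiated. The members were chosen by name, with pseudogenes left out, when earlier results of these data were already known. They are 76 of the 16225 named genes measured, 48 with MRPL and 28 with MRPS symbols, read by 90 of the 47293 probes on the array. The lines are ES01, BG03 and H9, each an untreated human ES cell line kept on irradiated mouse embryonic fibroblast feeders in serum replacement medium with FGF2, and each was read on 1 Illumina bead array. The study's stated comparison was of these lines, as biological replicates, with pluripotent mouse cells, which are not analysed here. The lines form 1 group of 3, so a line, its culture and its array cannot be told apart.

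Mitochondria translate their own small genome on a ribosome of bacterial descent. Its RNAs are encoded in mitochondrial DNA, whereas every one of its proteins is encoded in the nucleus, made in the cytosol and imported. The ribosome makes only core membrane subunits of the oxidative phosphorylation complexes, and most of its proteins are counterparts of bacterial ribosomal proteins, while the others have been added in mitochondria. ES cells are known for relying heavily on glycolysis, and they nevertheless keep and use their mitochondria.

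The arrays gave the picture of human ES cells for the markers examined, with 8 of 9 measured ES cell markers above background in all 3 lines, among them DNMT3B, LIN28A, POU5F1 and NANOG. The exception was SOX2. Summed over that list the intensity was 20726 in ES01, 18750 in BG03 and 16763 in H9, most of it from DNMT3B and LIN28A. The list did not share that order of lines. DNMT3B, LIN28A, SALL4 and DPPA4 were highest in ES01. POU5F1 (195 in ES01, 287 in BG03 and 270 in H9) and ZFP42 (247 in ES01, 780 in BG03 and 364 in H9) were lowest there. The background threshold, set on each array at the 95th percentile over 214 probes of olfactory receptor genes, was 13.27 units in ES01, 12.62 in BG03 and 11.25 in H9 after quantile normalization. Of 8 fibroblast markers, 5 were above background in all lines and COL3A1 in none. The summed intensity of that list was 3639 in ES01, 2667 in BG03 and 3500 in H9. Most of it came from VIM, at 2104 in ES01, 1476 in BG03 and 2346 in H9. COL1A1 was dim at 43.2 in ES01, 22.0 in BG03 and 18.6 in H9, and LUM and DCN were not above background in all lines. The part of fibroblasts in the values below was not tested. Of 3 neural markers 0 were above background in all lines, and of 3 measured muscle and heart markers only ACTC1 was. On each array between 2089034 and 2102778 beads were read. For bead types between 300 and 1000 units the standard error of the log2 bead mean had a median between 0.041 and 0.042, and for those between 70 and 300 units between 0.061 and 0.062. The 95th percentile of that error between 300 and 1000 units was 0.064 in ES01, 0.098 in BG03 and 0.059 in H9. These errors are of beads within an array, in the units of the bead files, which were not matched to the normalized intensities. With 1 array per line the precision of a difference between lines is unknown.

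All 76 members were above background in each of the 3 lines, against 59.8% of all genes above it in all 3. The members above background in all lines thus included the 50 proteins of the large subunit and the 26 of the small subunit. The lowest member in every line was MRPL4, a protein of the polypeptide exit tunnel, with an intensity of 83.4 in ES01, 73.5 in BG03 and 74.3 in H9. Even that signal was 6.28, 5.83 and 6.60 times the threshold of ES01, BG03 and H9. The brightest probe in every line was that of MRPL12, a large subunit protein also known to bind the mitochondrial RNA polymerase, at 6167 in ES01, 6637 in BG03 and 6601 in H9. The order of 2 probes is not an order of their transcripts, since probes differ in how strongly they bind. The median over the members was 942 in ES01, 926 in BG03 and 950 in H9. Cytosolic ribosomal protein genes were above background in all lines for 67 of 68, and nuclear genes of oxidative phosphorylation subunits for 71 of 78. No test of these shares was made. An array of total RNA reads the level per sample, so that fewer cells with a transcript and less of it per cell cannot be told apart.

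**Figure D1:**
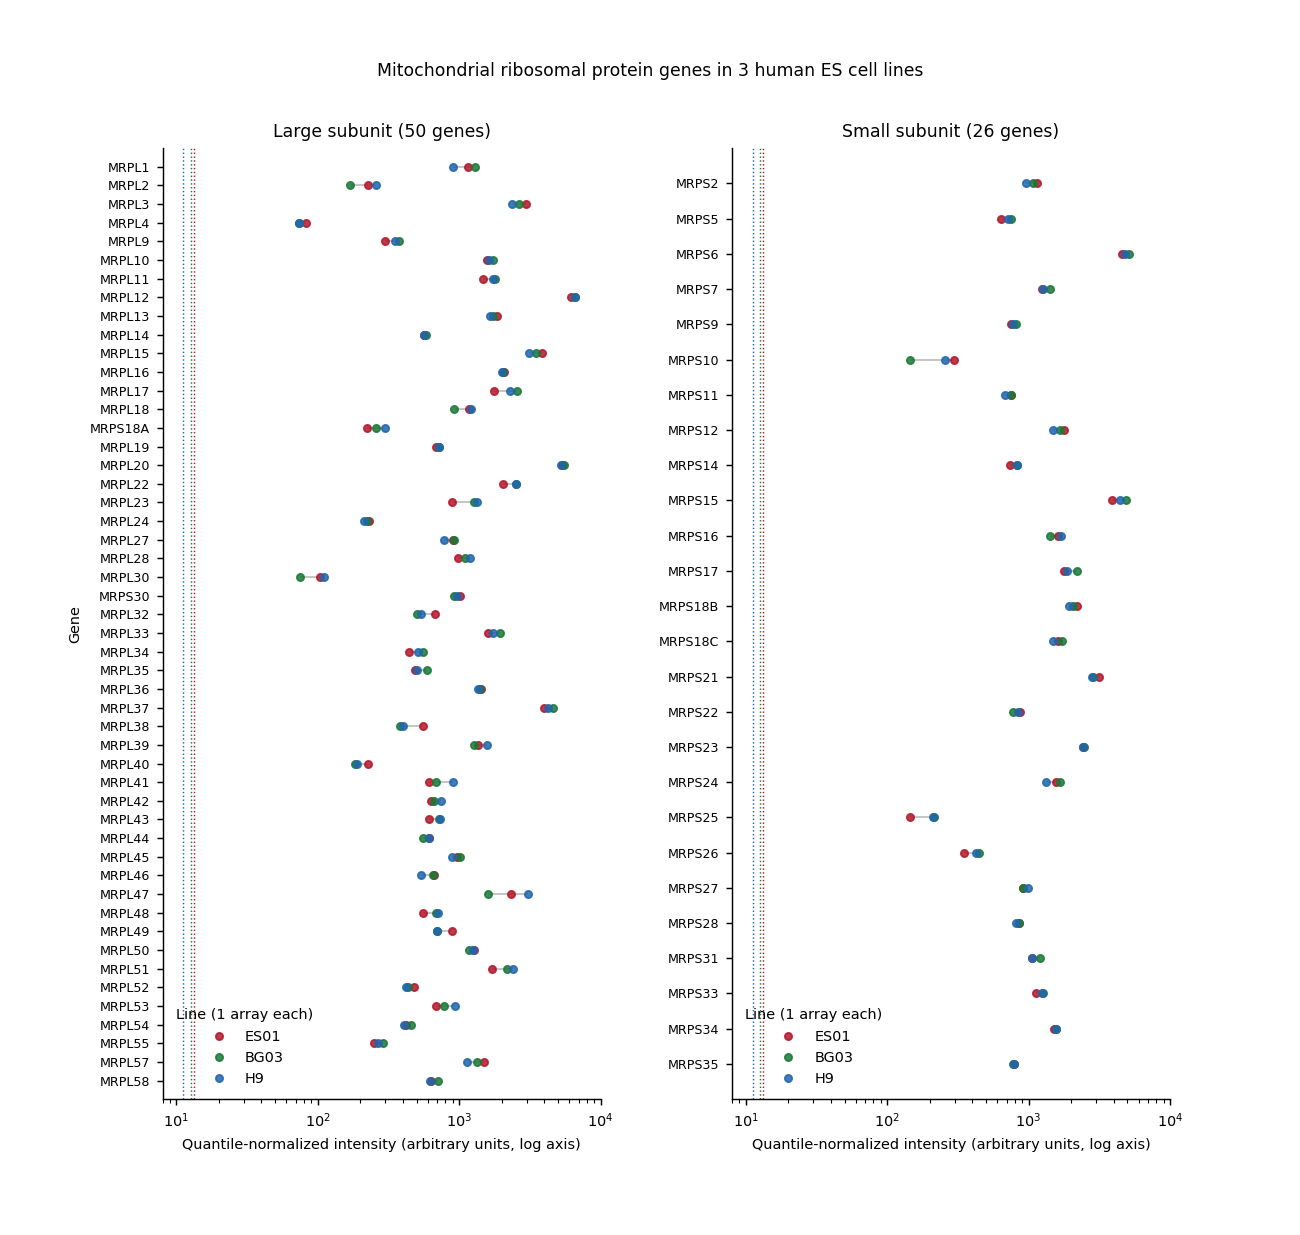
Quantile-normalized intensity (arbitrary units, log axis) of each mitochondrial ribosomal protein gene in ES01, BG03 and H9, 1 point per line and array, split by ribosomal subunit; dotted lines are the background thresholds of 13.27, 12.62 and 11.25 units. Every point lies right of its threshold, the lowest being MRPL4, and MRPS10, MRPL47 and MRPL2 have their BG03 point well to the left of the others.

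Most members differed little between lines. The SD of the log2 intensity over the 3 lines had a median of 0.122 over the 76 members (range 0.014 to 0.539), against 0.188 over the 10997 genes tested, which were above background in 1 line or more. A difference under 1.2-fold between every 2 lines was found for 42 members, or 55.3%, against 35.1% of all genes. At least 1.5-fold between some 2 lines was reached by 3 members (3.95%), against 25.9% of all genes. At least 2-fold was reached by 1 member, against 8.23% of all genes. The genes tested include dim ones, which the members do not. Set against the trend of variance with intensity over all genes tested, 44 of 76 members (57.9%) lay below the trend, near the 54.4% of all genes. The cytosolic ribosomal protein genes had a median SD of 0.094 and the oxidative phosphorylation genes one of 0.125.

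**Figure D2:**
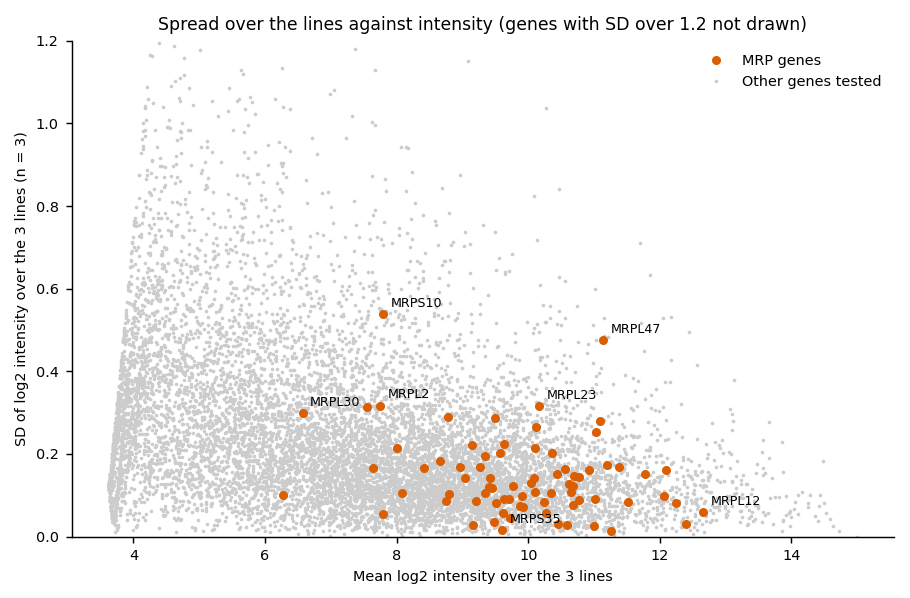
SD of log2 intensity over the 3 lines (n = 3) against the mean log2 intensity, with the 76 mitochondrial ribosomal protein genes in orange and the other genes tested in grey; genes with an SD over 1.2 are not drawn. The members have SDs from 0.014 to 0.539, and MRPS10 and MRPL47 stand highest among them. Below the trend of variance with intensity lay 44 of the 76 members (57.9%), near the 54.4% of all genes.

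MRPS10, a small subunit protein with a bacterial counterpart, had the widest spread of the members. Its intensity was 295 in ES01, 145 in BG03 and 255 in H9. BG03 was the low line, and ES01 and H9 lay close together. The difference was 1.02 on the log2 scale for ES01 minus BG03, -0.81 for BG03 minus H9 and 0.21 for ES01 minus H9 (log2 SD 0.54, n = 3). With array medians made equal, ES01 minus BG03 was 0.68 and ES01 minus H9 turned to -0.09.

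MRPL47, a large subunit protein near the polypeptide exit tunnel, measured 2319 in ES01, 1601 in BG03 and 3091 in H9 at the probe common to its transcripts. BG03 was again the low line, and H9 the high one. The log2 differences were -0.95 for BG03 minus H9, 0.53 for ES01 minus BG03 and -0.41 for ES01 minus H9 (log2 SD 0.48, n = 3). With array medians made equal, ES01 minus BG03 was 0.20 and ES01 minus H9 was -0.68. A second probe, which reads 1 transcript form, gave 370.3 in ES01, 205 in BG03 and 283 in H9. BG03 was lowest at both probes, but the order of ES01 and H9 turned between them, with an ES01 minus H9 difference of 0.39 at the second probe.

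MRPL2, a core protein close to the peptidyl transferase centre, measured 227 in ES01, 169.5 in BG03 and 261 in H9. The BG03 minus H9 difference was -0.62 and the ES01 minus BG03 difference 0.42 (log2 SD 0.32, n = 3). With array medians made equal, ES01 minus BG03 was 0.07 and ES01 minus H9 was -0.49. After quantile normalization, all 3 members past 1.5-fold were lowest in BG03, the lowest line for 27.4% of all genes tested. Each has a bacterial counterpart, as 46 of the 76 members do. This set of 3 depends on the scaling. For MRPL2, BG03 minus H9 was -0.56 as deposited and -0.55 with equal 75th percentiles, short of the limit of 0.58 on the log2 scale. MRPL1, highest in BG03, passed the limit as deposited, with 1333.2 in BG03 and 872.2 in H9. With array medians made equal, 9 members passed 1.5-fold for ES01 minus H9 and 17 for ES01 minus BG03. Those medians, 4.4 units in ES01 and 3.5 in BG03 and H9 as deposited, lie below the background thresholds. Under that scaling the median difference over all genes tested was -0.27 for ES01 minus H9 and -0.34 for ES01 minus BG03. The share of all genes past 1.5-fold there was not computed, so the 9 and 17 are not particular to the members. The differences between lines have no replicate check, since each line has 1 array.

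Just under the 1.5-fold limit, 8 further members lay between 1.4-fold and 1.5-fold. They were picked out after their values were seen. Of these, 5 were lowest in ES01. MRPL23, at the rim of the exit tunnel, measured 895 in ES01, 1272 in BG03 and 1338 in H9. MRPL17, a large subunit protein with a bacterial counterpart, measured 1751 in ES01, 2550.3 in BG03 and 2287 in H9. In both, BG03 and H9 lay together above ES01. MRPL51, added in mitochondria, gave 1713 in ES01, 2176 in BG03 and 2415 in H9. MRPL41, also added there, gave 613 in ES01, 685 in BG03 and 904 in H9, and here the H9 value was the one apart. MRPS25, a small subunit protein added in mitochondria, was 146.0 in ES01, against 213 in BG03 and 212 in H9. The other 3 members of the 8 each followed another pattern. MRPL38, a large subunit protein with a phosphatidylethanolamine-binding fold, was highest in ES01 at 554, with 385 in BG03 and 399 in H9. MRPL30, a core large subunit protein, had 104 in ES01, 75.2 in BG03 and 110.4 in H9, lowest in BG03. MRPL1, of the mobile stalk of the large subunit, had 1154 in ES01, 1304 in BG03 and 909 in H9, lowest in H9. No single line was thus low or high in all 8.

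By place in the ribosome, MRPL10 and MRPL12 of the stalk that calls in translation factors were even between lines. MRPL10, which anchors that stalk, measured 1564 in ES01, 1737 in BG03 and 1625 in H9. MRPL12, whose copies form it, had an SD of 0.059 at the values given above. Around the exit tunnel the spreads were mixed. MRPL22 measured 2038 in ES01, 2516 in BG03 and 2508 in H9, so that ES01 was low as it was for MRPL23. MRPL24 was even at 230.1 in ES01, 224 in BG03 and 214 in H9. Among small subunit proteins that bind the ribosomal RNA, MRPS7 measured 1236 in ES01, 1421 in BG03 and 1272 in H9, and MRPS15 measured 3899 in ES01, 4872 in BG03 and 4422 in H9. Both were highest in BG03 and neither reached 1.5-fold. Whether the spread differs by place was not tested.

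Some members act as enzymes or resemble one. MRPL58, a peptidyl-tRNA hydrolase that rescues stalled ribosomes, measured 629 in ES01, 709 in BG03 and 622 in H9 (log2 SD 0.10). MRPL44, which resembles ribonuclease III, measured 615 in ES01, 552 in BG03 and 608 in H9 (log2 SD 0.09). BG03 was the high line for MRPL58 and the low line for MRPL44, each by less than 1.2-fold.

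Below the 8 members near the limit, the wider spreads included members in which the lines stood in a row. MRPL53 measured 689 in ES01, 782 in BG03 and 938 in H9, lowest in ES01. MRPL3, a core protein near the peptidyl transferase centre, ran the other way with 2976 in ES01, 2663 in BG03 and 2353 in H9. MRPL15 did so too, with 3869 in ES01, 3510 in BG03 and 3134 in H9. In MRPL18, which binds the mitochondrial tRNA built into the large subunit, the values were 1177 in ES01, 925 in BG03 and 1215 in H9, with BG03 apart. MRPL32, whose maturation by a protease precedes ribosome assembly in yeast and mouse, was highest in ES01 at 677, with 508 in BG03 and 534 in H9. MRPL48 was lowest in ES01 at 554, with 685 in BG03 and 712 in H9. These are examples chosen after their values were seen. In all, 31 members lay between 1.2-fold and 1.5-fold, of which 18 were lowest in ES01, 6 in BG03 and 7 in H9. Over all genes tested 35.1% were lowest in ES01, 27.4% in BG03 and 37.6% in H9. The order of lines depends on the scaling of the arrays, as the shares given further on show.

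The most even members were found in both subunits. MRPS35 gave 784 in ES01, 770.2 in BG03 and 785 in H9 (log2 SD 0.015), and MRPS23 gave 2437 in ES01, 2462 in BG03 and 2413 in H9 (log2 SD 0.014). Both are small subunit proteins added in mitochondria. MRPS34, which is needed for a stable small subunit, followed with 1504 in ES01, 1554 in BG03 and 1557 in H9 (log2 SD 0.028). MRPS28 and MRPS9, which have bacterial counterparts, had SDs of 0.045 and 0.058, and MRPS27, a pentatricopeptide repeat protein, one of 0.075. In the large subunit the smallest SDs were those of MRPL16 (2077 in ES01, 2032 in BG03 and 2004 in H9, log2 SD 0.026), MRPL14 (0.028), MRPL20 (0.030), MRPL36 (0.031), MRPL19 (0.036) and MRPL24 (0.054), all counterparts of bacterial proteins. Except for MRPS28, MRPS9 and MRPS27, these SDs were below the median error of bead types in the same range of units. Bead types were not linked to probes, and the units of the bead files were not matched to the normalized intensities. The comparison is therefore rough. These SDs were picked as the smallest of each subunit and carry no test.

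The variance test asked whether a gene varied over the lines more than genes of like intensity. Each variance was compared with the trend in limma (squeezed prior, F-test) across 10997 genes. The test called 0 members and 0% of all genes at an adjusted p under 0.05. At an unadjusted p under 0.05 there was 1 member of 76, MRPL47, against 4.71% of all genes. The variance of MRPL47 was 14.9 times the trend (limma, unadjusted p = 0.0169, adjusted p = 0.979). Its adjusted p was 0.0213 without ES01, where BG03 and H9 alone remain, and 0.00196 with no filter on dim genes, which adds 5228 genes held at the floor. In those fits 79 and 402 of all genes passed as well, against 0 in the test above. Over all alternatives it ran between 0.00196 and 1. For MRPS10 the variance was 7.03 times the trend and the unadjusted p in limma's test was 0.0547. A p over the threshold from 3 arrays does not show that the other members were alike in the lines.

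Over the members as a list, the median log2 difference was -0.036 for ES01 minus H9, beside 0.015 over all genes tested, and 35 of 76 members were higher in ES01 (46.1%, against 51.8% of all genes). For ES01 minus BG03 the median was -0.056, beside -0.006 over all genes, with 31 members higher in ES01 (40.8%, against 49.1%). For BG03 minus H9 it was 0.042, beside 0.025, with 48 members higher in BG03 (63.2%, against 53.7%). The 3 pairs share arrays and are not independent. The split moved with the scaling of the arrays. The share of members higher was 60.5% for ES01 against H9 and 75% for BG03 against H9 in the values as deposited, and 59.2% and 77.6% with the 75th percentiles made equal. With the medians made equal it was 13.2% for ES01 against H9 and 7.89% for ES01 against BG03, where the medians over all genes themselves stood at -0.27 and -0.34. No direction for the whole list between lines is given.

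By size, the counts at 1.5-fold or more were 0 members for ES01 minus H9 (16.3% of all genes), 1 for ES01 minus BG03 (13.5%) and 3 for BG03 minus H9 (11.8%). With array medians made equal they were 9 for ES01 minus H9 and 17 for ES01 minus BG03. The share of all genes under that scaling was not computed. After quantile normalization the counts at 2-fold were 0 members (5.10% of all genes), 1 member (3.74%) and 0 members (3.23%) for the same pairs. The 1 member at 2-fold was MRPS10. By direction, the share of all genes at 1.5-fold was 8.32% higher and 7.97% lower for ES01 minus H9, 7.37% higher and 6.08% lower for ES01 minus BG03, and 5.82% higher and 6.01% lower for BG03 minus H9. After quantile normalization the 1 member for ES01 minus BG03 was higher in ES01, and the 3 for BG03 minus H9 were lower in BG03. As deposited, MRPL1 took the place of MRPL2 among the 3 for BG03 minus H9 and was higher in BG03. The 50 large subunit genes had a median SD of 0.145 and 2 members at 1.5-fold, and the 26 small subunit genes a median SD of 0.099 and 1 such member. A difference under 1.2-fold between every 2 lines was found for 22 of the 50 (44%) and for 20 of the 26 (76.9%). The 46 members with a bacterial counterpart had a median SD of 0.129, and the 30 added in mitochondria one of 0.106. BG03 was higher than H9 for 34 of the 46 and for 14 of the 30. Whether these groups of members differ was not tested, and their split carries the dependence on scaling given above.

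**Figure D3:**
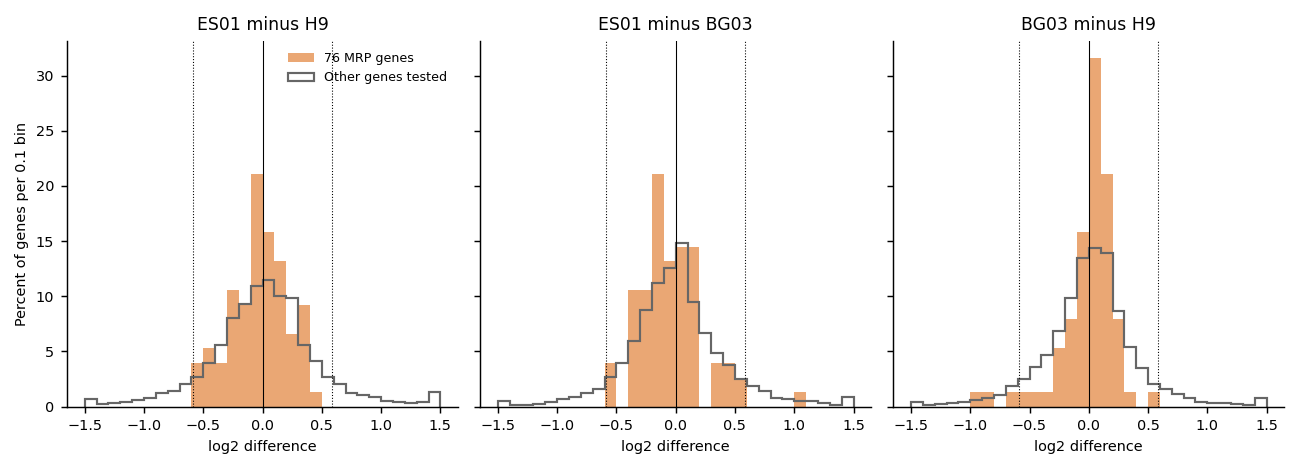
Percent of genes per bin of the log2 difference for ES01 minus H9, ES01 minus BG03 and BG03 minus H9, with the 76 mitochondrial ribosomal protein genes filled and the other genes tested as an outline; dotted lines mark 1.5-fold, and differences beyond 1.5 on the log2 scale are drawn in the end bins. The members gather near 0, with medians of -0.036, -0.056 and 0.042, and few lie past the dotted lines.

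Bacteria have a single S18 protein in their small subunit, whereas human mitochondria have 3 relatives of it, encoded by MRPS18A, MRPS18B and MRPS18C. The first sits in the large subunit and the other two in the small one. MRPS18A measured 222 in ES01, 259 in BG03 and 299 in H9, highest in H9 (log2 SD 0.21). MRPS18B measured 2198 in ES01, 2054 in BG03 and 1939 in H9, highest in ES01 (log2 SD 0.09). MRPS18C measured 1614 in ES01, 1733 in BG03 and 1494 in H9, highest in BG03 (log2 SD 0.11). All of them were above background in every line, each had its highest value in another line, and none reached 1.5-fold between 2 lines.

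For 11 members several probes were on the array, 25 in all. Probe names end in A where the probe was designed to read all known transcripts of a gene, in I where it reads 1 transcript form and in S where a gene had a single known transcript. All 17 A probes and all 58 S probes of the members were above background in every line, against 63.0% and 58.8% of named probes of those kinds. Of the 15 I probes 8 were above it in all lines (53.3%, against 28.2% of I probes) and 6 in none. The 6 dim ones belong to MRPL4, MRPL39, MRPL43 (2 probes), MRPL55 and MRPS12. Each of these genes has another probe above background in all lines. For MRPS12, a protein of the decoding centre, the A probe read 1770 in ES01, 1675 in BG03 and 1497 in H9, while a form probe read 10.3 in ES01 (not above background), 18.7 in BG03 and 17.9 in H9. Whether the dim probes bind their transcripts was not checked, so absence of those forms is not shown. MRPL30 is read by an I probe alone.

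Between probes of 1 gene, the lines often ranked differently. MRPL11, a protein of the GTPase-associated region, measured 1481 in ES01, 1796 in BG03 and 1725 in H9 at its A probe. Its form probe gave 56.5 in ES01, 56.7 in BG03 and 24.7 in H9, so that H9 was lowest there and ES01 minus H9 was 1.19 on the log2 scale, against -0.22 at the A probe. The form probe is dim, and its H9 value stands beside a threshold of 11.25. MRPL33 gave 1593 in ES01, 1943 in BG03 and 1727.5 in H9 at 1 probe and 1034, 955 and 1043 at the other, for ES01, BG03 and H9. MRPL35, MRPS11 and MRPS21 differed by less than 1.5-fold between all lines at both of their probes. MRPL43 was read most brightly by a form probe (613 in ES01, 723 in BG03 and 732 in H9), with its A probe at 255, 262 and 239 for ES01, BG03 and H9. Each gene was read from its brightest probe, and averaging the probes instead gave the same counts of members at 1.5-fold.

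**Figure D4:**
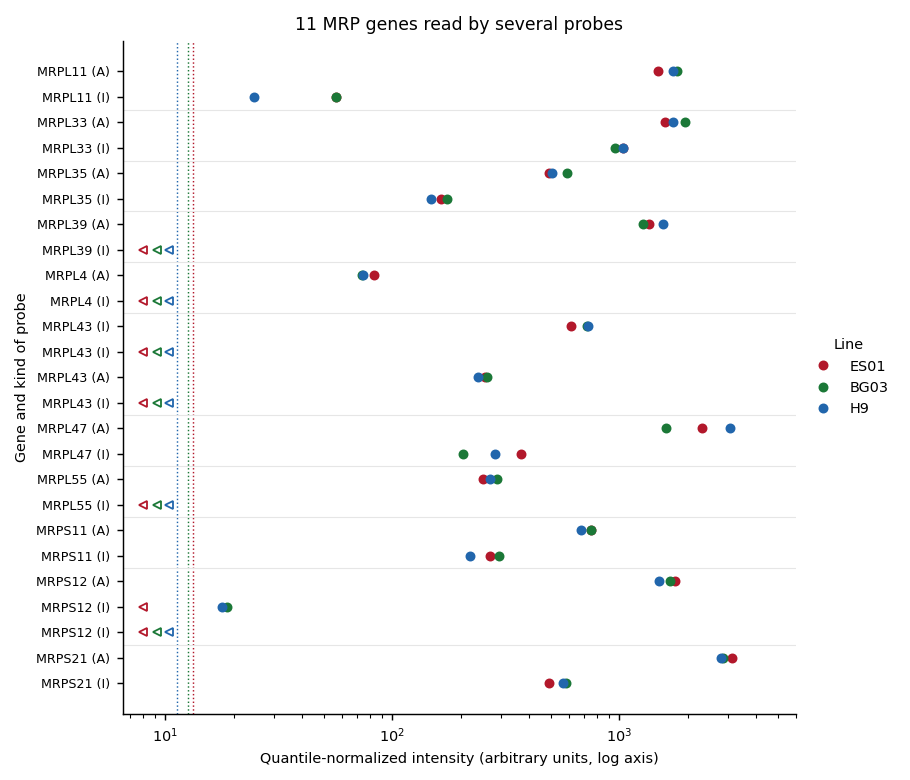
Quantile-normalized intensity (arbitrary units, log axis) of the 25 probes of 11 mitochondrial ribosomal protein genes in ES01, BG03 and H9; A reads all known transcripts, I reads 1 form, dotted lines are the background thresholds and open triangles, placed left of them at no measured value, stand for values not above them. Of 15 I probes on the array for these genes and MRPL30, 6 were not above background in any line.

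Other genes of mitochondrial translation, transcription and DNA replication, with regulators, were measured from lists of 91 genes, of which 80 had a probe. Of these, 77 were above background in all 3 lines. The 4 measured ribosomal proteins with other symbols were all above it. DAP3, a GTP-binding small subunit protein first named for its part in cell death, was as even as any member at 1416 in ES01, 1414 in BG03 and 1440 in H9. GADD45GIP1, a large subunit protein, measured 90.1 in ES01, 47.3 in BG03 and 67.8 in H9, lowest in BG03. All 16 measured genes of a list of translation factors and other proteins of mitochondrial translation, such as OXA1L, LRPPRC and SLIRP, were above background. TUFM, the elongation factor that brings tRNA to the ribosome, measured 4229 in ES01, 3731 in BG03 and 3686 in H9. GFM1, the translocation factor, measured 1296 in ES01, 771 in BG03 and 918 in H9, highest in ES01 (limma's variance test, unadjusted p = 0.0471, adjusted p = 0.979).

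Of 22 ribosome assembly and RNA modification factors, 20 were above background in every line. The other two, the assembly GTPases MTG1 and MTG2, were above it in no line, each at 1 unchecked probe. RCC1L, an assembly factor read by 3 probes, measured 129 in ES01, 159.9 in BG03 and 159.0 in H9. All 17 tRNA synthetases and tRNA amidotransferase subunits were above background, although GARS1 and KARS1 also serve the cytosol. QRSL1, an amidotransferase subunit, was dim at 13.6 in ES01, 27.4 in BG03 and 20.4 in H9. AARS2, the alanyl-tRNA synthetase, measured 253 in ES01, 277 in BG03 and 277 in H9. All 9 genes of mitochondrial transcription and DNA replication were above background, among them TFAM at 1422 in ES01, 1517 in BG03 and 1247 in H9.

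Among 12 regulators of mitochondrial genes, 11 were above background in all lines. GABPB1, whose protein is the partner of the ETS factor GABPA, was the most even with 302 in ES01, 299.7 in BG03 and 304 in H9, and GABPA measured 134 in ES01, 124.5 in BG03 and 146 in H9. NRF1 was dim at 38.6 in ES01, 43.8 in BG03 and 33.9 in H9, and YY1 measured 2623 in ES01, 2893 in BG03 and 2605 in H9. SP1, the GC box factor, was the outlying gene, with 442 in ES01, 512 in BG03 and 108 in H9. It was lowest in H9, and BG03 minus H9 was 2.24 on the log2 scale (limma's variance test, unadjusted p = 0.00255, adjusted p = 0.979), at 1 probe. ESRRG was above background in BG03 and H9 only. Over the 80 measured list genes 2 differed at least 2-fold between lines, QRSL1 and SP1, against 8.23% of all genes. At least 1.5-fold was reached by 14 list genes, against 25.9% of all genes.

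The promoters of the members, taken from RefSeq (GRCh38.p14) as 250 bases before to 50 bases after each gene's start, were searched for the letters of motifs on both strands. A promoter was matched for 69 of the 76 members. The ETS core CCGGAAG was in 29 of 69 (42.0%), against 14.2% of 15843 promoters of coding genes and 19.8% of the 8094 whose gene was above background in all lines. The YY1 motif AANATGGCG, where N is any base, was in 18 of 69 (26.1%), against 4.81% and 7.45%. At least 1 of these 2 motifs was in 43 (62.3%), against 18% and 25.6%, and 4 members held both. The last letters of the ETS core, AAG, can be the first of the YY1 motif, so that a match of each may overlap. The NRF1 motif, GCGCA followed by any base and GCGC, was in 8 (11.6%), against 8.58% and 12.4%, which is near the share of other genes. The GC box GGGCGG was in 60.9%, against 58.5% and 70.9%, and CCAAT in 29.0%, against 36.4% and 37.6%. The TATA box TATAAA was in 2 members (2.90%), against 9.63% and 5.62%, and the E-box CACGTG in 6 (8.70%), against 8.88% and 10.5%. These matches are descriptions of letters, not of binding, and the shares were not tested.

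The 90 bases before the start of 6 members are shown because they hold ETS letters, in capitals on either strand; MRPS10, MRPL47 and MRPS18A are among the members described above, and MRPS34, MRPL20 and MRPS22 hold more than 1 match.
MRPS10: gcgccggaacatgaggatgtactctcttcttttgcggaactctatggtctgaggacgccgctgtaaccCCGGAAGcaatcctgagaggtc
MRPL47: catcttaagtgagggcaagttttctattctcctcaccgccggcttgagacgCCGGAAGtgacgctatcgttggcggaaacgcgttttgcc
MRPS18A: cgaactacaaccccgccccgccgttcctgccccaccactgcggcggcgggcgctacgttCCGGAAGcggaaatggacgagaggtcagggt
MRPS34: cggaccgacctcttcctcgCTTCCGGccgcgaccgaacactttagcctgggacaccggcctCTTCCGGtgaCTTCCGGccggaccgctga
MRPL20: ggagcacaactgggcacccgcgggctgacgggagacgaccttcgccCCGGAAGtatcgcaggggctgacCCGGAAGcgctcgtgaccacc
MRPS22: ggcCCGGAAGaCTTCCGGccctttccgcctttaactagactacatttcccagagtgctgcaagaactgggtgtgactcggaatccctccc
In GRCh38.p14 these stretches are chr6:42217862-42217951 (minus strand) for MRPS10, chr3:179604639-179604728 (minus strand) for MRPL47, chr6:43687792-43687881 (minus strand) for MRPS18A, chr16:1773135-1773224 (minus strand) for MRPS34, chr1:1407294-1407383 (minus strand) for MRPL20 and chr3:139343904-139343993 (plus strand) for MRPS22. In MRPS22 the 2 matches shown stand on opposite strands, separated by 1 base, and a further match lies after the start. Over all members 33 of 39 ETS matches (84.6%) began within 100 bases before the start or after it, against 72.7% of matches in all promoters.

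The YY1 letters lay mostly just after the start. Of 20 matches in members 16 (80%) began after it, against 61.8% of matches in all promoters. The motif contains the letters ATG, so a match after the start may cover a start codon, which was not checked. The first 30 bases of 6 members are shown for this, with the motif in capitals.
MRPS10: gggaccggcAAGATGGCGgcgcggacagcg
MRPS18A: aggtttttgAAGATGGCGgccctcaaggct
MRPS30: ggaatcgcgggcaAAGATGGCGgcggccag
MRPL32: cagcagggAAAATGGCGctggccatgctgg
MRPL42: attgaaacAAGATGGCGggttcgtggtgag
MRPL46: gagaacgaAAGATGGCGgcgcccgtaaggc
In GRCh38.p14 these are chr6:42217832-42217861 (minus strand) for MRPS10, chr6:43687762-43687791 (minus strand) for MRPS18A, chr5:44808947-44808976 (plus strand) for MRPS30, chr7:42932376-42932405 (plus strand) for MRPL32, chr12:93467514-93467543 (plus strand) for MRPL42 and chr15:88467359-88467388 (minus strand) for MRPL46. The variable base of the motif was the same in 5 of the 6, MRPL32 being the exception. MRPS10 and MRPS18A hold ETS letters before the start and YY1 letters after it, as the 2 sets of sequences show.

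By motif, the median log2 SD over the lines was 0.128 in the 29 members with ETS letters and 0.112 in the 40 without. It was 0.141 in the 18 with YY1 letters and 0.122 in the 51 without. For NRF1 letters it was 0.091 in the 8 with them and 0.123 in the 61 without. No test was made of these differences. The G+C content of the members' promoters had a median of 60.3%, against 62.7% in all promoters and 65.3% in those of genes above background in all lines. The ratio of observed to expected CpG had a median of 0.879, against 0.763 and 0.846.

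**Figure D5:**
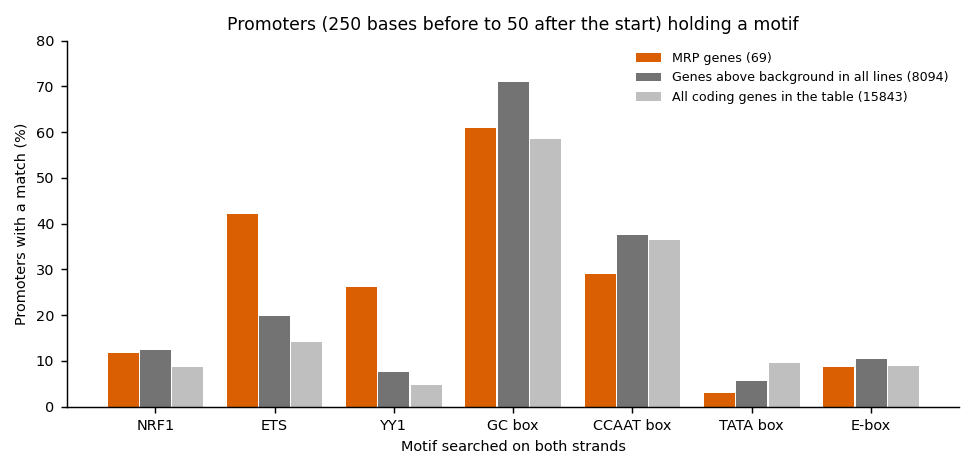
Percent of promoters (250 bases before to 50 after the start) with at least 1 match to each motif, for 69 mitochondrial ribosomal protein genes, 8094 genes above background in all lines and 15843 coding genes. ETS (42.0%) and YY1 (26.1%) bars are taller for the members, and the NRF1 bars (11.6% and 12.4%) are near each other.

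Many members also share their start region with a neighbour read in the opposite direction. A coding gene on the other strand began within 1000 bases before the start of 18 of the 69 members (26.1%), against 10.2% of all coding promoters and 14% of those of genes above background. For 17 of the 18 the partner had a probe, and all 17 partners were above background in every line, against 59.8% of all genes. The members MRPL46 and MRPS11 are among these partners. The share above background among partners of other genes was not computed. MRPL46 and MRPS11, 1 of each symbol class, are each other's partner, with starts 320 bases apart. MRPL46 measured 667 in ES01, 651 in BG03 and 538 in H9, and MRPS11 measured 751 in ES01, 753 in BG03 and 682 in H9, so both were lowest in H9. MRPS12 and SARS2, the seryl-tRNA synthetase of mitochondria, start 181 bases apart. SARS2 measured 1541 in ES01, 1419 in BG03 and 1286 in H9, and the values of MRPS12 given above fall in the same order of lines. MRPS2 and PIERCE1, MRPS18B and PPP1R10, MRPS18C and HELQ, and MRPS27 and PTCD2 also had the same order of the 3 lines in both genes. In all, 5 of the 16 distinct pairs with both genes measured had the same order and 11 had another. MRPL57 gave 1492 in ES01, 1341 in BG03 and 1132 in H9, and its partner SKA3, a kinetochore and spindle protein gene, gave 484 in ES01, 286 in BG03 and 389 in H9, so that ES01 was highest in both and the low line differed. MRPL51 and its partner NCAPD2, a condensin subunit with 567 in ES01, 921 in BG03 and 607 in H9, were both lowest in ES01, and the high line differed. The pairs named so far share an order of lines or a high or low line. MRPL49 (891.5 in ES01, 703 in BG03 and 699 in H9) and FAU (9348 in ES01, 9383 in BG03 and 10086 in H9) ran in opposite orders. So did MRPL50 (1268 in ES01, 1178.5 in BG03 and 1257 in H9) and ZNF189 (193 in ES01, 224 in BG03 and 208 in H9). All pairs given with values were chosen after those were seen. With 3 lines no relation between partners can be tested.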

How the data were processed

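The deposited value table gives 1 intensity per probe and array, on a linear scale. Of its values 26.3% in ES01, 32.8% in BG03 and 33.8% in H9 are below 0, as after background subtraction, a step the labels do not state. The software, and whether arrays were scaled to each other, is not stated in the labels. The deposited bead files give 1 intensity per bead and served for bead error only.

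The platform annotation gave 18468 probes 1 symbol and 0 several, with 28825 unnamed here, and 18451 were found by gene ID in RefSeq. All probes except 4 bacterial controls were quantile-normalized (limma 3.58.1, R 4.3.3). The probe with the highest mean stood for a gene. Lower values were raised to the background threshold, then log2 was taken. The variance test used limma (squeezeVar with trend, F-test, Benjamini-Hochberg over 10997 genes), with 3.71 prior degrees of freedom. On simulated data only the size of added differences and the rate of low p-values in unchanged genes were required to hold. SP1, at 44.5 times the trend, had an adjusted p of 0.979 in limma's variance test, so a wide spread can go uncalled. SDs are over 3 lines on the log2 scale. The series' design text calls the lines biological replicates. The p-values set a gene's spread over the 3 arrays against that of genes of like intensity. With 1 array per line, that spread holds line, culture and array together.

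Genes named are members past 1.5-fold or an unadjusted p of 0.05, with several probes, of the S18 family or with the 6 smallest SDs of each subunit; list genes follow the same rules at 2-fold. The members and lists were chosen with earlier results of these data known. Others are named as examples. Promoters and figures used Python 3.11.15 with pandas 2.3.3 and matplotlib 3.10.9.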

Additional observations from a re-analysis of the deposited data

How the results depend on the processing

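All 76 members stayed above background in all lines under each of the 6 alternatives that bear on it and without any 1 line. No paired analysis was possible because the 3 lines form 1 group. The array medians as deposited were 4.4 in ES01, 3.5 in BG03 and 3.5 in H9, all below the background thresholds. With these medians made equal, the median difference was -0.28 for ES01 minus H9 and -0.41 for ES01 minus BG03. Members at 1.5-fold then numbered 9 and 17, and those higher were 13.2% and 7.89%, with 75% for BG03 minus H9. Over all genes the medians for ES01 minus H9 and ES01 minus BG03 were then -0.27 and -0.34. The share of all genes at 1.5-fold with equal medians was not computed. As deposited, 60.5% of members were higher for ES01 minus H9 (median 0.049) and 75% for BG03 minus H9. With equal 75th percentiles these were 59.2% and 77.6%, and 2 members reached 1.5-fold for ES01 minus BG03. At a 2-fold threshold BG03 minus H9 had 0 members. Members at an unadjusted p under 0.05 in limma's variance test were 2 with the 99th percentile background, the second background set, the deposited values, genes above background in all lines, the pseudocount of 16 and the robust prior, 7 with no filter on dim genes and 0 with no trend. At an adjusted p under 0.05 there was 1 with no filter, MRPL47, among 402 of all genes. Leaving out 1 line gave 0 to 1 members at an adjusted and 2 to 3 at an unadjusted p under 0.05, the adjusted call being MRPL47 without ES01 (adjusted p = 0.0213), among 79 of all genes. MRPL47 had an unadjusted p of 0.0515 with equal medians, 0.102 with no trend and 0.0776 without BG03. The share of all genes at an unadjusted p under 0.05 in limma's variance test was 4.71% in the main fit. It was not computed in the alternative fits, so their counts of members have no share beside them. The cause of the shifts with processing was not tested.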
